A study of Mus musculus with 15 samples.

Results

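Messenger RNA of 10 NLRP genes of the mouse oocyte was described, namely Nlrp2, Nlrp14, Nlrp4a, Nlrp4b, Nlrp4c, Nlrp4e, Nlrp4f, Nlrp9a, Nlrp9b and Nlrp9c. They were chosen by name as the oocyte members of the family other than Nlrp5, and they are 10 of the 53700 genes in the count tables. Polyadenylated RNA came from pools of 15 oocytes at the germinal vesicle stage, when the fully grown oocyte is held before meiosis resumes. The Padi6 line has an FVB/N background and gave 3 biological replicates from Padi6 heterozygotes (het) and 3 from Padi6 knockouts (KO). The Tle6 line has a C57BL/6J background and gave 2 replicates from Tle6 heterozygotes and 4 from Tle6 knockouts. Controls in both lines thus carry 1 mutant allele, and neither line has wild-type oocytes. The labels used here do not say how either allele was made or which animals gave the oocytes. A p-value therefore sets a difference only against the scatter of these replicates. Whether that scatter spans different animals is not known.

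NLRP proteins carry a nucleotide-binding domain and leucine-rich repeats, usually behind a pyrin domain. Several, such as NLRP3, assemble inflammasomes in immune cells, whereas a rodent-expanded set is transcribed mainly in oocytes and passed to the embryo as maternal product. NLRP5 (MATER) belongs to the subcortical maternal complex with TLE6, and this complex and PADI6 are needed for the cytoplasmic lattices, the fibrous arrays that store protein in the oocyte. NLRP2, NLRP14 and NLRP4F are known from mouse mutants to be needed by the mother for normal development of the early embryo.

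The 5 Nlrp4 genes share much of their coding sequence, which bears on how their reads can be counted, so the first 60 coding bases of each are shown. They are read from the GENCODE M21 transcripts, and capitals mark bases that differ from Nlrp4a.
Nlrp4a: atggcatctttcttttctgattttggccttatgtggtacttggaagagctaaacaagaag
Nlrp4b: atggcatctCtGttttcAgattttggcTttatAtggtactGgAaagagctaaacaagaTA
Nlrp4c: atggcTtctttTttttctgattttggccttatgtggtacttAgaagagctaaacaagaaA
Nlrp4e: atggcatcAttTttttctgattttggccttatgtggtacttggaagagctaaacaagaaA
Nlrp4f: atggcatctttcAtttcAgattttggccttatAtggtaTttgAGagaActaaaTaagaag
Of these 60 bases, 9 differ from Nlrp4a in Nlrp4b, 4 in Nlrp4c, 3 in Nlrp4e and 8 in Nlrp4f. Over the whole coding sequence, Nlrp4c and Nlrp4e were identical at 93.9% of aligned bases, and Nlrp4b stood apart at 77.8 to 79.1% from the others of its group. Nlrp9a was identical to Nlrp9c at 87.7% and to Nlrp9b at 84.2%. Reads with more than 1 alignment were kept out of the genes' counts, at 12.09 to 14.51% of all reads in a library. Of the 50-base words of the Nlrp4e transcript, 36.9% also occur in a transcript of another gene, mostly in the predicted gene Gm16443. The share was 11.9% for Nlrp4c, 7.1% for Nlrp4f, 6.5% for Nlrp9a, 6.2% for Nlrp9b, 5.0% for Nlrp9c and 3.1% for Nlrp4a. It was 0.8% for Nlrp2 and 0.0% for Nlrp4b and Nlrp14. With words of 100 bases it was 11.5% for Nlrp4e and at most 1.4% for any of the others. Levels of Nlrp4e, and to a smaller degree Nlrp4c, are therefore uncertain as counts of one gene.

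**Figure D1:**
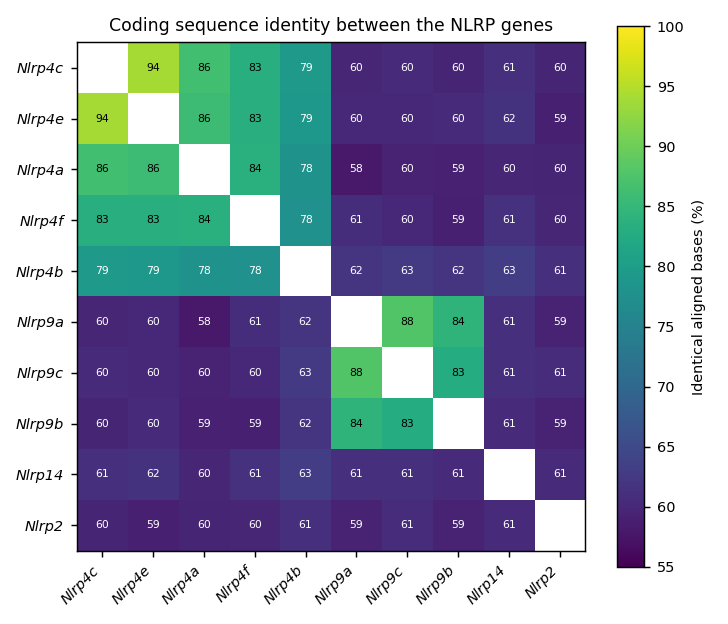
Percentage of identical bases among aligned coding bases for each pair of the 10 genes, with the colour scale running from 55 to 100%. The Nlrp4 and Nlrp9 genes form separate blocks, with the highest value, 93.9% before rounding, between Nlrp4c and Nlrp4e.

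In the GENCODE M21 annotation 9 of the 10 genes lie on chromosome 7 and Nlrp4f lies on chromosome 13. Exons of Nlrp2 overlap the predicted gene Gm18757 on the opposite strand over 3.0% of their bases, and those of Nlrp9b overlap Gm18877 on the same strand over 3.7%. The other 8 genes overlap no annotated exon.

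Libraries held between 30100177 and 74947533 gene counts, and the 10 genes together took 0.669 to 1.129% of them in a replicate. All 11 measured oocyte markers, among them Gdf9, Bmp15 and Zp3, were detected in every library. They summed to 10560 to 20040 CPM (counts scaled to a fixed library total), against 88.2 to 135 CPM for 15 granulosa and cumulus markers and at most 5.48 CPM for 7 theca and stroma markers. Most of the granulosa and cumulus sum came from Nr5a2 and Cyp19a1. Fshr, Amhr2, Inha and Foxl2 had at most 2.42 scaled CPM in any replicate, and Cyp11a1 at most 22.9. In Padi6 KO against het 10 of 12 tested granulosa and cumulus markers had negative log2 fold changes (median -0.465). Has2 was higher (2.19, edgeR adjusted p = 0.0109) and alone passed 0.05, beside 2.41% of all genes. In Tle6 KO against het 9 of 13 were positive (median 0.554), and none passed, beside 1.62% of all genes. Blood and immune markers, 8 genes, summed to at most 2.63 CPM, with 2 to 6 of them at 0. Padi6 averaged 22.3 CPM in Padi6 KO against 1688 in Padi6 het, and Tle6 averaged 81.3 CPM in Tle6 KO against 441 in Tle6 het, as labelled.

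Technical libraries A and B exist for both Tle6 het replicates and for Tle6 KO replicate 4. Het replicate 1 and KO replicate 4 had like libraries, with log2 CPM correlating across genes at 0.999 and 0.998 and A-to-B ratios of 0.94 to 1.06 for the 10 genes. The libraries of het replicate 2 correlated at 0.938. There Nlrp4a was at 1686 scaled CPM in A but 2970 in B, and Nlrp4b at 884.6 and 1785. Nlrp14 went the other way, at 4362 in A and 2509 in B. Nlrp2, Nlrp9a and Nlrp9b differed little between these libraries, with ratios of 1.0, 0.98 and 1.06. Library B also had the lowest scaling factor of all libraries, 0.7602, and 0.185% mitochondrially encoded counts against 0.353% in library A. Every Tle6 het mean rests on this replicate and one other. How fold changes move with library A alone, or without the replicate, is given below for most of the genes.

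**Figure D2:**
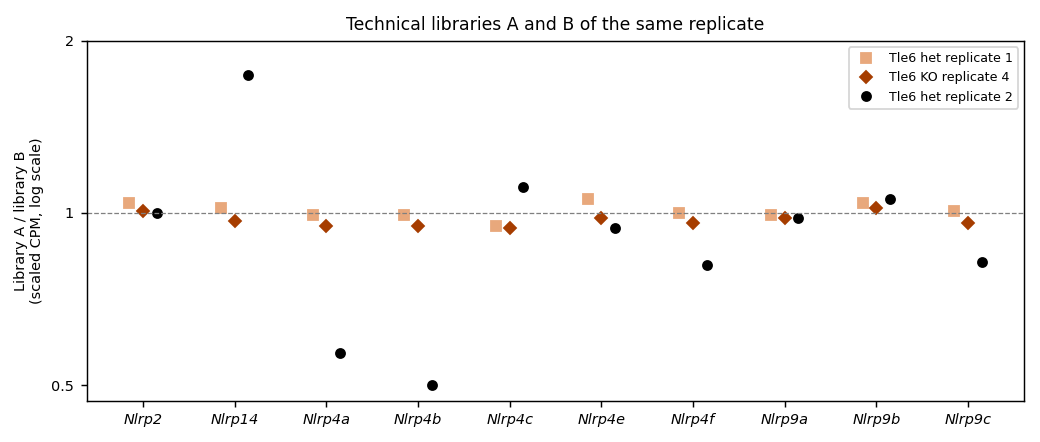
Ratio of library A to library B (log scale) in scaled CPM for each gene, for the 3 replicates with technical libraries. The ratios of het replicate 1 and KO replicate 4 lie between 0.94 and 1.06, whereas those of het replicate 2 run from 0.5 for Nlrp4b to 1.74 for Nlrp14.

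Levels of different genes are compared as TPM, in which counts are divided by gene length and then scaled to a fixed total. The length used is that of all annotated exons of a gene merged. For Nlrp9c it is 5935 bases against 3216 in the single transcript searched above, and for Nlrp4b 4491 against 3326. A shorter length gives a higher TPM, so the order of genes at similar levels depends on this choice. By scaled CPM, without length, Nlrp9c ranked 5 in Padi6 het in place of 7. Nlrp14 was the highest of the 10 in every group, at 3317 ± 289 TPM in Padi6 het (SD, n = 3), 2738 ± 317 in Padi6 KO (n = 3), 2247 ± 698 in Tle6 het (n = 2) and 2205 ± 624 in Tle6 KO (n = 4). Among protein-coding genes it ranked between 23 and 70 by TPM across replicates. Its range did not overlap that of the gene below it in any group. Nlrp4c was the lowest everywhere, with group means of 19.9 to 25.4 TPM.

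Between these lay a middle tier. In Padi6 het the order by mean TPM was Nlrp4f (1117), Nlrp4a (1058), Nlrp9b (831.8), Nlrp4b (531.8), Nlrp9a (495.1), Nlrp9c (460.9), Nlrp2 (355.7) and Nlrp4e (292.8). Neighbouring ranges overlapped for Nlrp4f and Nlrp4a, for Nlrp4b, Nlrp9a and Nlrp9c, and for Nlrp2 and Nlrp4e. In Padi6 KO the ranges of Nlrp4f and Nlrp4a did not overlap, at 1034 and 963.4 TPM on average. Nlrp4a passed Nlrp4f in Tle6 het, at 1348 against 981.4 TPM with no overlap, and Nlrp4b came next after Nlrp4f at 821.0 TPM. In Tle6 KO Nlrp4a and Nlrp4f overlapped again, at 833.8 and 805.5 TPM.

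**Figure D3:**
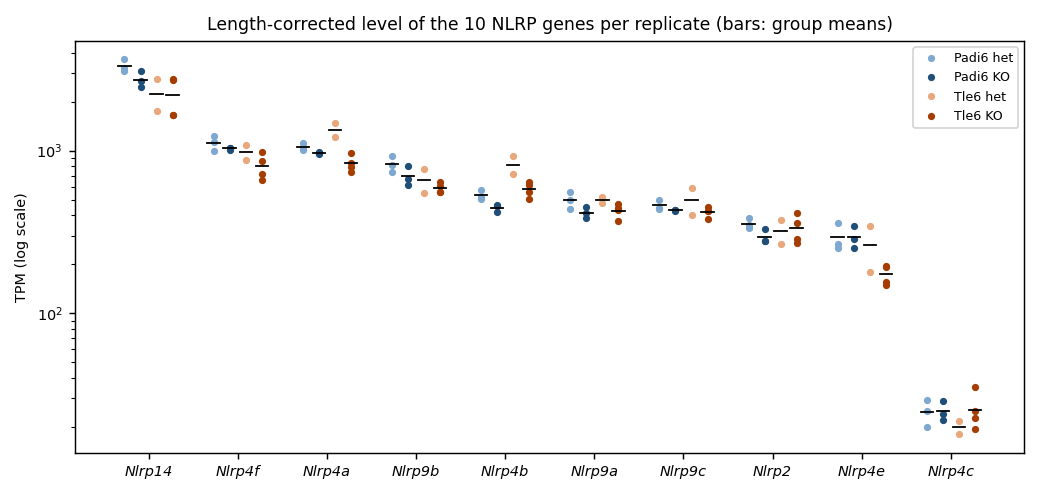
TPM on a log axis for each gene, ordered by the mean in Padi6 het, with 1 point per biological replicate, coloured by group, and bars at group means. Nlrp14 is at 1663 TPM or more and Nlrp4c at 34.9 TPM or less in every replicate, with the other 8 genes between.

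The first question is whether these transcripts differ in oocytes without PADI6. None of the 10 passed the threshold in Padi6 KO against het, where 2.41% of all 18228 genes tested did, 1.69% higher and 0.724% lower (edgeR quasi-likelihood test, Benjamini-Hochberg adjusted p under 0.05). Their median log2 fold change was -0.15, with 8 of 10 negative, beside a median of -0.01 over all genes. At an unadjusted p under 0.05 there were 2, Nlrp2 and Nlrp4b, beside 18.6% of all genes, so this count is near the background. DESeq2 called 0, beside 3.53% of all genes.

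Nlrp14, whose protein is known to bind UHRF1 in the oocyte, had 3743, 3185 and 3247 scaled CPM in Padi6 het replicates 1 to 3 and 3215, 2804 and 2507 in KO replicates 1 to 3. The groups overlapped narrowly, since KO replicate 1 lay above het replicate 2. The log2 fold change was -0.24 ± 0.11 (SE), with a 95% interval of -0.48 to 0.01 (edgeR adjusted p = 0.276). Nlrp2 had 391.7, 328.7 and 363.0 scaled CPM in het and 339.8, 291.0 and 280.9 in KO. Here too only KO replicate 1 reached the het range, and the log2 fold change was -0.23 ± 0.10 (edgeR adjusted p = 0.259).

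In the Nlrp4 group, Nlrp4b had 744.7, 631.1 and 697.1 scaled CPM in Padi6 het and 606.1, 561.6 and 594.9 in KO, and Nlrp4a had 1566, 1423 and 1454 against 1381, 1362 and 1360. Every KO value was below every het value for these 2 genes, which also held for 12.5% of all genes, and no member had every KO value above, beside 10.8% of all genes. The log2 fold changes were -0.21 ± 0.10 for Nlrp4b and -0.10 ± 0.09 for Nlrp4a (edgeR adjusted p = 0.264 and 0.616). Nlrp4c, Nlrp4e and Nlrp4f lay at 0.05, 0.05 and -0.07, with interval bounds between -0.31 and 0.40. Nlrp9a, Nlrp9b and Nlrp9c lay at -0.21, -0.22 and -0.06. In a pool of oocytes, fewer cells that hold a transcript and less transcript per cell cannot be told apart.

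**Figure D4:**
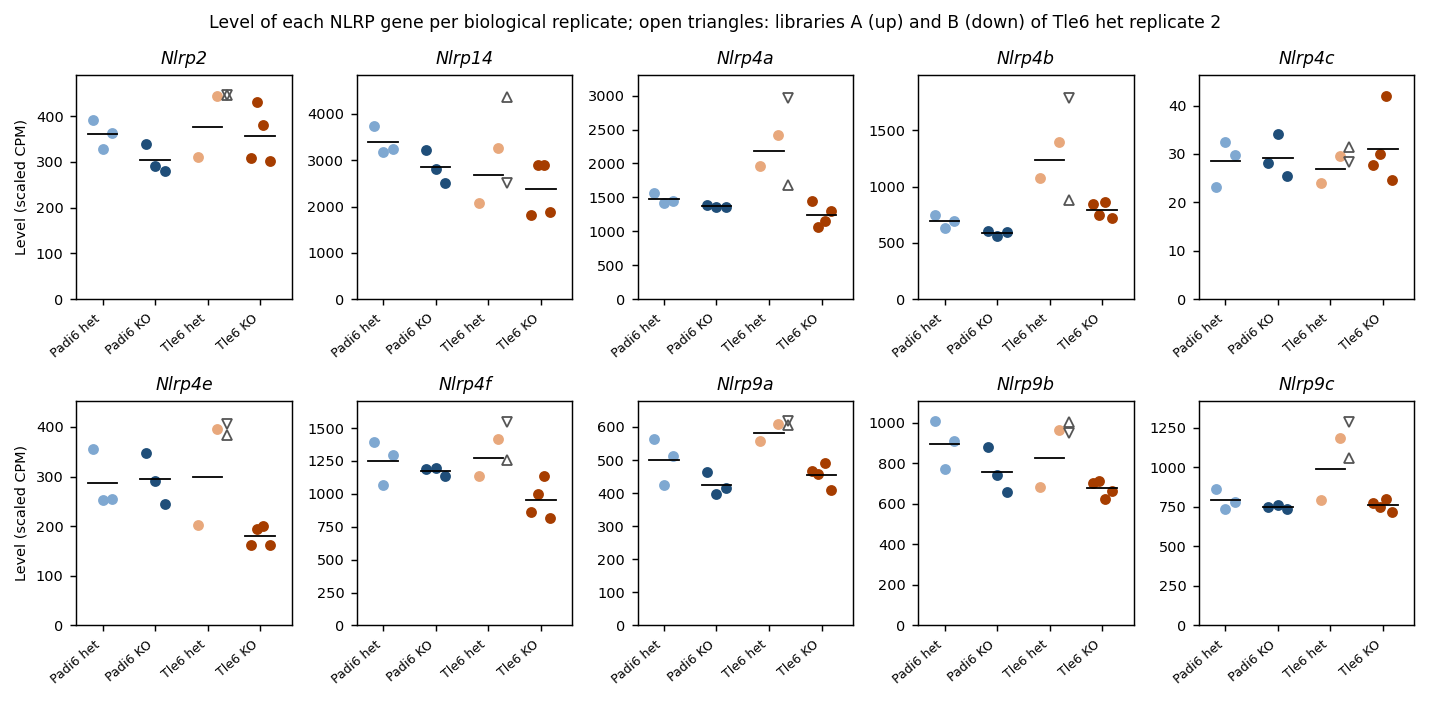
Scaled CPM of each gene in each biological replicate by group, with bars at group means and open triangles for the technical libraries (A upward, B downward) of the second Tle6 het replicate. Nlrp4a and Nlrp4b are highest in Tle6 het, where the 2 triangles lie far apart, and Nlrp14 has low and high replicates in both Tle6 groups.

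In the Tle6 line Nlrp4a, Nlrp4b and Nlrp4e had the most negative fold changes of the set in KO, but none of the 10 genes passed the threshold, beside 1.62% of 20276 genes tested, 0.587% higher and 1.04% lower (edgeR, adjusted p under 0.05). The median log2 fold change of the 10 was -0.33, with 9 negative, beside 0.06 over all genes. With total count scaling the median was -0.17 with 7 negative. At an unadjusted p under 0.05 there were 3, the same Nlrp4a, Nlrp4b and Nlrp4e, beside 19.0% of all genes. DESeq2 called 1, Nlrp4a, beside 4.51% of all genes.

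Nlrp4a had 1962 and 2418 scaled CPM in Tle6 het replicates 1 and 2 and 1453, 1058, 1149 and 1294 in KO replicates 1 to 4. All KO replicates lay below both het replicates. The log2 fold change was -0.78 ± 0.20, with an interval of -1.23 to -0.33 (edgeR adjusted p = 0.0885). Across the alternatives run the adjusted p lay between 0.00475, with a spread shared by both lines, and 0.418, with the replicate number as a block. With library A alone for het replicate 2 the log2 fold change was -0.55 (adjusted p = 0.314), and without het replicate 2 it was -0.65 (adjusted p = 0.305).

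Nlrp4b had 1076 and 1399 scaled CPM in het and 846.9, 745.8, 862.7 and 718.7 in KO, again without overlap. Its log2 fold change was -0.60 ± 0.19 (edgeR adjusted p = 0.143), and -0.29 with library A alone (adjusted p = 0.588). Without het replicate 2 Nlrp4b had -0.43. Nlrp4e, which in mouse knockdown experiments is needed for early cleavage, had 202.7 and 395.1 in het and 162.5, 194.6, 199.8 and 162.2 in KO. The het replicates differed widely, replicate 1 lay just above the KO range, and the log2 fold change was -0.70 ± 0.26 (edgeR adjusted p = 0.198). Leaving out het replicate 2 gave -0.16 and leaving out het replicate 1 gave -1.13.

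Groups did not overlap, with KO lower, for 4 of the 10 genes, Nlrp4a, Nlrp4b, Nlrp4e and Nlrp9a, and for 16% of all genes. None had KO higher, beside 13.3% of all genes. Nlrp9a had 556.9 and 609.2 scaled CPM in het and 409.2 to 489.8 in KO, with a log2 fold change of -0.32 ± 0.17 (edgeR adjusted p = 0.349). Nlrp4f, a protein reported to bind the subcortical maternal complex, had -0.38 ± 0.20, Nlrp9b -0.25 ± 0.19 and Nlrp9c -0.34 ± 0.20. Without het replicate 2 these 3 values were -0.24, -0.006 and -0.048, and without het replicate 1 they were -0.56, -0.50 and -0.63. Nlrp4c was the only positive value, 0.26 ± 0.26, with 0.088 when het replicate 1 was left out and 0.38 when het replicate 2 was.

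Nlrp14 and Nlrp2 spread widely within both Tle6 genotypes. Nlrp14 had 2068 and 3272 scaled CPM in het replicates 1 and 2, and 1820, 2905, 2902 and 1874 in KO replicates 1 to 4. Nlrp2 had its low and high values in the same replicates, with 311.3 and 443.6 in het and 309.0, 432.1, 380.0 and 301.5 in KO. Low and high values thus occurred in both genotypes, and the log2 fold changes were -0.13 (interval -0.76 to 0.50) and -0.05 (interval -0.56 to 0.46). For Nlrp14 the value was -0.43 from library A alone and 0.069 from library B alone, and 0.21 without het replicate 2. For Nlrp2, leaving out het replicate 2 gave 0.20 and leaving out het replicate 1 gave -0.31. In the high KO replicates 2 and 3 mitochondrially encoded genes took 0.475 and 0.461% of counts and granulosa and cumulus markers summed to 125 and 118 CPM. In the low KO replicates 1 and 4 these were 0.225 to 0.272% and 103.7 to 105 CPM. Most of the marker sum was Nr5a2 and Cyp19a1, with means of 49.6 and 47.1 scaled CPM in Tle6 KO. Fshr, Amhr2 and Inha averaged 0.35, 0.50 and 0.77 there, so the sum is a poor measure of granulosa RNA. The part of either quantity in the levels of Nlrp14 and Nlrp2 was not tested. The KO replicates split in the same way across all genes, so the split is not particular to Nlrp14 and Nlrp2. Log2 CPM of replicate 1 correlated at 0.990 and 0.992 with libraries A and B of replicate 4. Replicates 2 and 3 correlated at 0.990, and libraries from different sides of the split at 0.972 to 0.977. Reads outside annotated genes were 6.7 and 7.29% in replicates 2 and 3 and 5.65 to 5.84% in replicates 1 and 4.

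**Figure D5:**
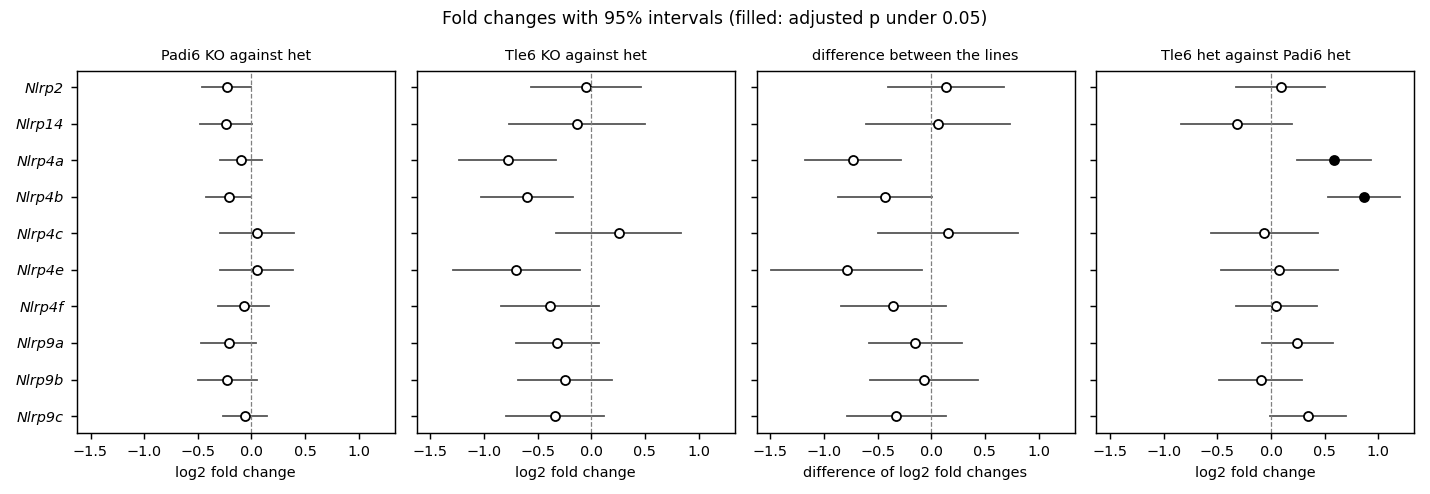
Log2 fold changes with 95% intervals of the 10 genes in each comparison, where filled points passed an adjusted p of 0.05 (in the third panel, the difference between the lines' log2 fold changes). Only Nlrp4a and Nlrp4b are filled, in Tle6 het against Padi6 het, and Nlrp4a, Nlrp4b and Nlrp4e lie farthest below 0 in Tle6 KO.

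Whether the KO effect differs between the lines was tested as an interaction, which shares its samples with both comparisons above. None of the 10 genes passed, beside 4.32% of 21392 genes, 1.31% with a positive and 3.01% with a negative difference. Nlrp4a came nearest, at -0.73 ± 0.21 with an interval of -1.18 to -0.28 (edgeR adjusted p = 0.0666), and Nlrp4e had -0.79 ± 0.33 (adjusted p = 0.191). From library A alone Nlrp4a had -0.45 (edgeR adjusted p = 0.353). It passed with DESeq2 (-0.72, adjusted p = 0.0282), without Tle6 het replicate 1 (-0.89, adjusted p = 0.0393) and without Tle6 KO replicate 1 (-0.83, adjusted p = 0.0235). Nlrp4e passed without Tle6 het replicate 1 (-1.21, edgeR adjusted p = 0.0295) but lay at -0.22 without Tle6 het replicate 2. Nlrp14 lay at 0.06 with an interval of -0.61 to 0.74.

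Between the heterozygotes of the 2 lines, Nlrp4a and Nlrp4b were higher in Tle6 het on C57BL/6J than in Padi6 het on FVB/N. These 2 of 10 genes stand beside 28.5% of all genes, 15.9% higher and 12.7% lower. Nlrp4b was 1.82-fold higher, a log2 fold change of 0.87 ± 0.16 (edgeR adjusted p = 0.00128), and stayed past the threshold from library A alone, at 0.52 (adjusted p = 0.0386). Nlrp4a was 1.5-fold higher, 0.59 ± 0.16 (edgeR adjusted p = 0.0146), but from library A alone it had 0.31 (adjusted p = 0.214). It also missed the threshold without Tle6 het replicate 2 (0.42, edgeR adjusted p = 0.146) and without Padi6 het replicate 3 (0.57, adjusted p = 0.0502). This comparison shares its Tle6 het replicates with Tle6 KO against het, so the 2 results are not independent. Nlrp4a averaged 1239 scaled CPM in Tle6 KO, below Padi6 het (1481) and Padi6 KO (1368). Nlrp4b averaged 793.5 in Tle6 KO, above Padi6 het (691.0) and Padi6 KO (587.5). The other 8 genes lay between -0.32 (Nlrp14) and 0.35 (Nlrp9c). Without Tle6 het replicate 2 they lay between -0.70 (Nlrp14) and 0.17 (Nlrp9a), and without Tle6 het replicate 1 Nlrp9c passed as well (0.62, edgeR adjusted p = 0.0127). Line, strain background, mutant allele and library preparation cannot be told apart here. With total counts in place of trimmed-mean (TMM) scaling the median log2 fold change over all genes moved from -0.03 to -0.34 in this comparison, from 0.06 to 0.22 in Tle6 KO against het and from 0.02 to 0.25 in the interaction. On that scale Nlrp4b had 0.55 and Nlrp4a had 0.28, the latter not past the threshold (adjusted p = 0.151), and the median of the 10 genes was -0.23 in place of 0.08. The median of the 10 in the interaction was -0.01 in place of -0.24.

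Across the 12 replicates, with each line centred on its own mean, Nlrp2 and Nlrp14 correlated at r = 0.96, and also at 0.96 within each line of 6 replicates. Nlrp4a and Nlrp4b correlated at r = 0.90, with 0.95 and 0.92 within the lines, whereas Nlrp4a and Nlrp14 were at 0.14. Nlrp4c lay at -0.04 against the mean of the other 9, but its values differed between the lines. In the Padi6 line it was negative against every other member, from -0.64 (Nlrp9a) to -0.28 (Nlrp14). In the Tle6 line it ran from -0.39 (Nlrp4a) to 0.63 (Nlrp14). These are descriptions with no test, and the labels used here do not say which replicates shared a library preparation. The promoter windows of Nlrp4a and Nlrp4b, the pair with the highest correlation within the Nlrp4 group, are shown from RefSeq on GRCm38.p6, 250 bases before to 50 after the start. RefSeq lists 2 windows for each of these genes, and the pair that aligned over the most bases is shown. Lower case marks bases that match in a local alignment of the pair, and capitals mark bases that differ or lie outside it.
Nlrp4a (chr7:26435364-26435663, + strand): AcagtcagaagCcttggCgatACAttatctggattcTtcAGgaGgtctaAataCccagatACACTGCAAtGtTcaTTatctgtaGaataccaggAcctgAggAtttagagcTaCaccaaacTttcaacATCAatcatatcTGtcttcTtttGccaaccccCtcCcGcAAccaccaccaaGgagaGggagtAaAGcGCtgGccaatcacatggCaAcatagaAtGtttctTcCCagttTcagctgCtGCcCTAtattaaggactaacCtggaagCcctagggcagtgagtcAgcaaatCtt
Nlrp4b (chr7:10687543-10687842, + strand): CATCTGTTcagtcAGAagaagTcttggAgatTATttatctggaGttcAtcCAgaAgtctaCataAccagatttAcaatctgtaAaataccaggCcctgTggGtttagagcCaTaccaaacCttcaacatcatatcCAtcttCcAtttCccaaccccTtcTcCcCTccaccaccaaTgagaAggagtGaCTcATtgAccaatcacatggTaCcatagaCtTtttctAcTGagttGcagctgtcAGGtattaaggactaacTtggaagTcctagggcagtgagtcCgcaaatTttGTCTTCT
The alignment covered 280 bases, of which 81.8% were identical. The other window of Nlrp4a aligned with Nlrp4b over only 18 bases. Nlrp4a matched Nlrp4c about as well, at 80.8% over 260 bases, and the levels of Nlrp4a and Nlrp4c correlated at -0.37. Among 11 promoter windows of 9 genes, TAATTG, a NOBOX-type site, occurred in 2, beside 8.0% of all windows of this length. TAATTA, which differs from it in the last base, occurred in 1, beside 5.3%. CANNTG, the E-box, occurred in 10, beside 72.3%, and TATAAA in 1, beside 13.6%. All were searched on both strands. RefSeq windows for Nlrp14 were not used here.

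By the likeness of the mean profile of the 10 genes over the 12 replicates, the nearest of 7544 protein-coding genes were Nusap1 (r = 0.98), which binds spindle microtubules, Grhl1 (0.97), a grainyhead transcription factor, and Vps35 (0.97), a retromer subunit. Haus3, an augmin subunit, followed at 0.97 and Oog1, an oocyte-specific leucine-rich repeat gene, at 0.96. Nlrp5 ranked 2486th at 0.38. The 5 named are the highest of 7544 values and carry no test. Each line was centred, but not each genotype. In the Tle6 line every member but Nlrp4c was highest in het replicate 2, whose libraries A and B differed. Nlrp5 had 848.5 scaled CPM in that replicate and 1083 in het replicate 1. How far the ranking rests on het replicate 2 was not tested.

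Among related genes, the inflammasome NLRP genes were nearly silent. Nlrp1a, Nlrp1b, Nlrp3, Nlrp6 and Nlrp10 had at most 0.951 scaled CPM in any replicate and Nlrp12 at most 1.93. Of 9 other NLRP genes 3 could be tested in Padi6 KO against het and 5 in Tle6 KO against het, and none passed. Nlrp5 itself lay at -0.27 ± 0.11 in Padi6 KO and -0.40 ± 0.19 in Tle6 KO (edgeR adjusted p = 0.216 and 0.293). Of 11 other NLR genes 4 could be tested in Padi6 KO and 7 in Tle6 KO. In Padi6 KO 1 was higher, Nlrc4 (0.50 ± 0.11, edgeR adjusted p = 0.0478), which forms an inflammasome with NAIP proteins. In Tle6 KO 0 passed, and 3 had an unadjusted p under 0.05, beside 19.0% of all genes. Naip6 is 1 of these 3, and its counts come mostly from the 1 library named below. In Tle6 het against Padi6 het Nod2 (1.64 ± 0.22) was higher. Naip6 also passed there, but on 1 library. It had 294 counts in library B of Tle6 het replicate 2, 0 in both libraries of Tle6 het replicate 1 and at most 11 in any other. Of 8 inflammasome partners 4 could be tested in Padi6 KO, 3 in Tle6 KO and 5 in the heterozygotes. Of those tested, Casp1, the interleukin-1-cleaving protease, alone passed, lower in Tle6 KO (-2.16 ± 0.38, edgeR adjusted p = 0.032) and higher in Tle6 het against Padi6 het (2.16 ± 0.39, adjusted p = 0.00121). Its group means were 0.745 to 4.11 scaled CPM.

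Of 6 lattice and subcortical maternal complex genes, only the targeted gene passed the test in each line, and it was lower. In Tle6 het against Padi6 het Padi6 (0.61 ± 0.19) and Zbed3 (0.64 ± 0.18) were higher and Tle6 lower, at 0.353 of its level in Padi6 het. None of 8 methylation genes, Uhrf1 included, passed in either KO comparison, and in the heterozygotes Dppa3 was higher and Trim28 and Dnmt3l lower. Of 8 oocyte transcription factors Gtf2a1l was higher in Tle6 KO (1.01 ± 0.20, edgeR adjusted p = 0.0438) and none passed in Padi6 KO. In the heterozygotes 2 of them were higher and 4 lower, among them Sohlh2 at 1.85 and Nobox at -1.02. Sohlh1, 1 of these 4, had at most 26 counts in any library. Of all genes tested between the heterozygotes 15.9% were higher and 12.7% lower.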

How the data were processed

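The authors deposited, for each of 15 libraries of 15 oocytes, raw read counts for every gene. Library preparation used a QIAseq FX Single Cell kit, per the labels' protocols. Per the submitters' processing notes the tools were bcl2fastq 2.20.0.422, cutadapt 2.8, STAR 2.7.8a and HTSeq 2.0.2 with mm39 (annotation release and strand setting: not given in the sources used here). The 92 spike-ins and the summary lines were left out. Spike-in counts were 40 in Padi6 het replicate 3, 4009 to 13772 in the other Padi6 libraries and 5 to 45 in the Tle6 libraries. Symbols, lengths and transcripts came from GENCODE M21 (GRCm38), matching 52147 identifiers and leaving 1553.

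Groups came from the genotype labels. Libraries A and B of a replicate were summed, giving 12 replicates. After filterByExpr, edgeR 4.0.16 in R 4.3.3 ran the robust quasi-likelihood test (TMM, two-sided, Benjamini-Hochberg over all genes, 0.05), within each line, or over all 12 replicates for the interaction and the heterozygotes. Scaled CPM use TMM over the 12 replicates, or over the 15 libraries where A and B are compared. The test was also run on simulated counts, with changes larger than any KO change of the 10 genes. That run does not bear on changes as small as theirs. Alternatives were RLE or total count scaling, no filter, DESeq2 1.42.0, a shared spread, a replicate block, single technical libraries and each replicate left out. Named genes are the 10 members, Padi6, Tle6, Nlrp5, up to 3 called genes per list by smallest p, and the 5 most like genes (log2 CPM, prior count 2). Identity between members was planned on proteins and computed on coding sequences instead. The genes and lists were chosen with earlier results of these data known.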

Additional observations from a re-analysis of the deposited data

How the results depend on the processing

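In the Padi6 comparison none of the 10 genes passed under any alternative. Percentages of all genes called there were 4.32 without a filter and 0.28 with 1 spread for both lines. In Tle6 KO against het 1 gene (Nlrp4a) was called without a filter and 1 with DESeq2, and 2 with the shared spread, while all genes gave 3.79, 4.51 and 9.63%. A libraries only gave 0.622, 1.78 and 17% of all genes in the Tle6, interaction and heterozygote comparisons, and library A alone for het replicate 2 gave 0.605, 1.79 and 17.5%. DESeq2 called 1 gene in the interaction. In the heterozygotes, 1 gene was called with total counts, with A libraries only and with library A alone, and all genes gave 16.2% unfiltered and 16.8% with DESeq2. Unfiltered and DESeq2 shares, here and above, are over every gene with any count, a wider set than the filtered genes of the main fits. Genes left without an adjusted p by DESeq2 count there as not called. These shares therefore cannot be set directly against those of the main fits.

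Replicates of the same number were not treated as pairs in the main fits, and the labels used here do not say whether they are. Same-numbered deviations correlated at 0.105, 0.056 and 0.067 in the Padi6 line, each highest for its own number. In the Tle6 line they correlated at 0.051 and 0.104, and het replicate 1 correlated more with KO replicate 4 (0.143). With the replicate block 4.71, 0.281 and 1.87% of all genes were called in the Padi6, Tle6 and interaction comparisons, in place of 2.41, 1.62 and 4.32%. Tle6 KO replicates 3 and 4 have no het replicate of the same number, so under the block they add nothing to the Tle6 difference. The Tle6 and interaction shares therefore rest on fewer replicates than the main fits. In the Padi6 comparison the block moved the edgeR adjusted p of Nlrp14 from 0.276 to 0.0878 and of Nlrp2 from 0.259 to 0.0959. Signs of uncalled values changed under the replicate block for Nlrp2 in the Tle6 line (0.024) and Nlrp9b in the interaction (0.034). Between the heterozygotes the block sets the level fitted for replicate 1 of one line against that of the other. Its values there are thus not of the quantity in the main fit and do not show how that fit depends on pairing. Signs differed for Nlrp2 (-0.31), Nlrp4c (0.012), Nlrp4e (-0.56) and Nlrp4f (-0.17). Nlrp14 was called (-0.85), and Nlrp4a was not (edgeR adjusted p = 0.0986).

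Total count scaling changed signs for Nlrp2 (0.12) and Nlrp14 (0.041) in the Tle6 line, Nlrp9a (0.075) and Nlrp9b (0.15) in the interaction, and Nlrp2 (-0.23), Nlrp4e (-0.24), Nlrp4f (-0.26) and Nlrp9a (-0.062) in the heterozygotes. A libraries only gave -0.19 for Nlrp14 in the interaction and -0.067 for Nlrp4f in the heterozygotes, library A alone gave -0.19 and -0.056, and library B alone gave 0.069 for Nlrp14 in the Tle6 line. The cause was not tested.

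Leaving out each replicate gave 0.33 to 1.4% of all genes in the Padi6 comparison, 0.599 to 1.46% in Tle6, 1.91 to 6.9% in the interaction and 16.9 to 29.6% in the heterozygotes. Genes called of the 10 ranged from 0 to 2 in the interaction and 1 to 3 in the heterozygotes. Ranges crossing 0 were -0.071 to 0.18 (Nlrp4c), -0.069 to 0.23 (Nlrp4e), -0.16 to 0.013 (Nlrp4f) and -0.095 to 0.006 (Nlrp9c) in the Padi6 line, and -0.31 to 0.20 (Nlrp2) and -0.45 to 0.21 (Nlrp14) in Tle6. In the interaction they were -0.11 to 0.42 (Nlrp2), -0.024 to 0.31 (Nlrp4c), -0.32 to 0.21 (Nlrp9b), -0.61 to 0.001 (Nlrp9c) and -0.25 to 0.44 (Nlrp14). In the heterozygotes they were -0.20 to 0.34 (Nlrp2), -0.23 to 0.091 (Nlrp4c), -0.49 to 0.50 (Nlrp4e), -0.13 to 0.22 (Nlrp4f) and -0.38 to 0.15 (Nlrp9b). Single-replicate arms were assumed to vary like the other samples. Ranks by level without length changed for 3 to 5 of the 10 genes per group.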
